A study of Mus musculus with 2 samples.

Results

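The Wnt module described here comprised 51 genes of the 32287 features counted in both libraries. Its members were taken by a rule on gene symbols that used no measured value, though earlier results of these data were known. They were 19 Wnt ligands, 12 receptors (10 Frizzleds with the co-receptors Lrp5 and Lrp6), 4 R-spondins, 3 LGR receptors (Lgr4, Lgr5 and Lgr6), 10 secreted inhibitors (Sfrp1, Sfrp2, Sfrp4, Sfrp5, Frzb, Wif1 and 4 Dickkopfs) and the 3 feedback genes Axin2, Znrf3 and Notum.

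Single cells were sequenced from hindlimb muscle of male C57BL/6J mice aged 10 to 16 weeks, 7 days after injury of the peroneal nerve on both sides. Every mouse carried, per the study's methods, a transgene that places EGFP under the S100B promoter, which marks Schwann cells but is not restricted to them. One group received 2 µg of an antibody that neutralizes SPP1 in 10 µL into the tibialis anterior, repeated every 2 days (SPP1-nAb). SPP1 is osteopontin, a secreted matrix protein that macrophages release in injured muscle. The control group received goat anti-mouse IgG in the same way (IgG). There was 1 library per condition, made from pooled mice whose number is not given, and both carried the injury, so no uninjured muscle entered the comparison. The labels name the tibialis anterior and the gastrocnemius and describe both GFP-positive and GFP-negative sorted cells, whereas the study's methods for this experiment name the tibialis anterior and the sample titles name GFP-positive cells. A UMI of the Gfp feature was found in 32.6% of the kept cells of the IgG library and in 45.4% of those of the SPP1-nAb library.

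With 1 library per condition there is no replicate, and no p-value is given. A level is the number of unique molecular identifiers (UMIs) of a gene summed over the cells of a class, given per 1000000 UMIs of all genes in those cells (CPM), with its exact Poisson 95% interval in brackets. A ratio is the log2 of the SPP1-nAb CPM over the IgG CPM, with an exact binomial 95% interval. These intervals cover counting error only, not the spread between mice. A gene was counted as past the fold when its CPM differed at least 1.5-fold between the libraries with at least 100 UMIs in the class over both.

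Wnt proteins are lipid-modified secreted ligands that bind Frizzled receptors on nearby cells. With the co-receptors Lrp5 and Lrp6 they stabilize β-catenin, which acts through the TCF/LEF transcription factors, while ligands such as Wnt5a also signal without β-catenin through Ror receptors. Sfrps, Frzb and Wif1 bind the ligand outside the cell, several Dickkopfs block the co-receptors (Dkk3, a divergent member, is not known to), and R-spondins bind LGR receptors and remove the ubiquitin ligase Znrf3 from the membrane, which leaves more Frizzled at the surface. Axin2 is induced by β-catenin and restrains it. In muscle the pathway is known for its parts in satellite cell behaviour and in the assembly of the neuromuscular junction.

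The upstream sequences of 4 members that the results turn on are shown. Dkk2 and Sfrp2 differed in opposite directions between the libraries in FAP-like cells, a fibroblast class. Wnt11 was the main ligand of myeloid cells, and Frzb lay mostly in Schwann-like cells. The results also turn on Wnt5a, Sfrp4, Rspo3, Sfrp1, Fzd3 and Lrp6, but the source used held no upstream sequence for these genes. Each is the 250 bases before a RefSeq start on the gene's own strand, from build GRCm38.p6. Capitals mark the TCF/LEF word CTTTGAA, its variants that end in T (CTTTGAT), in TA (CTTTGTA) or in TT (CTTTGTT), and the TATA word TATAAA, each searched on both strands.
Dkk2, chr3:132085042-132085291, plus strand: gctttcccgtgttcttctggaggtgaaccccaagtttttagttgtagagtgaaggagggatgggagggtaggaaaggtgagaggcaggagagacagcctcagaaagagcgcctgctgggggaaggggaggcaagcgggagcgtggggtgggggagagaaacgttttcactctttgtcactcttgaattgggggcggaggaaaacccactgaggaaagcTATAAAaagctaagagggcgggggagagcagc
Sfrp2, chr3:83766071-83766320, plus strand: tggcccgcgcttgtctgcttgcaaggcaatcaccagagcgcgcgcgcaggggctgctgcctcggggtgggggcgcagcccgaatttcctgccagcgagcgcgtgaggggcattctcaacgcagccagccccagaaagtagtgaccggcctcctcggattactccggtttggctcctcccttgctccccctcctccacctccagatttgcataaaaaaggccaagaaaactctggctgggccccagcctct
Wnt11, chr7:98834862-98835111, plus strand: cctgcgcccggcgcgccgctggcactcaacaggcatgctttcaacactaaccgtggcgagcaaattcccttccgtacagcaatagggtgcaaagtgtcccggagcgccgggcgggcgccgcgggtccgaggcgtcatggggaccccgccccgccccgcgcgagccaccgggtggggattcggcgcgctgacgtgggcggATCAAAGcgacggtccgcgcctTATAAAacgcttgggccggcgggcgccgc
Frzb, chr2:80447397-80447646, minus strand: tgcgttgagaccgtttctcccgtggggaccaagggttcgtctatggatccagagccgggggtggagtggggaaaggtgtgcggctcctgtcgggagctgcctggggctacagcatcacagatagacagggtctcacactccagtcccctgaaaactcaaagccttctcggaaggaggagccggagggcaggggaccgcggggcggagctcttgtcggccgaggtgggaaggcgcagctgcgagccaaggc

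The Dkk2 window held a TATA word that began 32 bases before the start. The Wnt11 window shown held one at 29 bases and a TCF/LEF word at 51 bases. Another Wnt11 start, with the window chr7:98838595-98838844 (not shown), had no such word. The windows of Sfrp2 and Frzb held neither. Of the 32 members with an entry in the table, 4 held a TCF/LEF word and 5 a TATA word in at least 1 window, against 14.8% and 12.4% of the 32851 windows of all genes. These matches describe letters in short windows and say nothing of binding. On GRCm39, the build of the count files, the annotation places Dkk2 on chromosome 3 from 131790336 to 131886065, Sfrp2 on chromosome 3 from 83673481 to 83681623, Wnt11 on chromosome 7 from 98484319 to 98504402 and Frzb on chromosome 2 from 80242313 to 80278304.

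The libraries held 23779 (IgG) and 25069 (SPP1-nAb) barcodes with 97607674 and 127719916 UMIs, and 163 barcode sequences occurred in both. After filters 21047 and 22282 cells were kept, with a median of 3650 and 4575 UMIs. Marker gates placed 19787 and 21099 of them in 14 classes, none of whose markers was a module member. With both libraries summed, 10 of 12 endothelial markers, 11 of 12 nerve-sheath markers, 12 of 14 satellite cell markers and 13 of 14 Schwann markers stood 1.5-fold or more above the other cells in their class. Every marker did in the 10 remaining classes. The same markers set the gates, so these counts were largely fixed in advance. Phagocyte-like cells made up 58.2% [57.5 to 58.8] of kept cells under IgG and 69.1% [68.5 to 69.7] under SPP1-nAb. FAP-like cells, named for fibro-adipogenic progenitors, made up 6.69% [6.35 to 7.03] and 2.40% [2.20 to 2.61]. In pooled, sorted suspensions a class share also depends on the gate and on recovery.

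Of the 51 members, 31 had at least 100 UMIs over both libraries, 18 had between 1 and 99, and Dkk4 and Wnt9b had none. The members with the fewest UMIs included classical β-catenin ligands: Wnt1 had 11, Wnt3a and Wnt3 had 1 each, Wnt8a and Wnt8b had 4 each, Wnt10a had 13 and Wnt7b had 19. Among ligands 8 of 19 reached 100 UMIs, against 10 of 12 receptors and 8 of 10 secreted inhibitors. Of the 31 members that reached 100 UMIs, 21 had the same highest class in both libraries, among them all 10 receptors. The share of all genes with the same highest class was not counted. Some of these placements rested on few UMIs, as for Fzd5, highest in neutrophil-like cells on 9 and 30 UMIs. Only classes with at least 50 cells in a library were ranked. That left out the 42 T/NK-like cells under IgG but kept the 75 under SPP1-nAb. Znrf3, highest in T/NK-like cells in both libraries, was therefore not counted among the 21. Of the 10 others, 5 had fibroblast classes at the top in both libraries: Dkk2, Dkk3, Sfrp2, Rspo3 and Wnt5a.

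**Figure D1:**
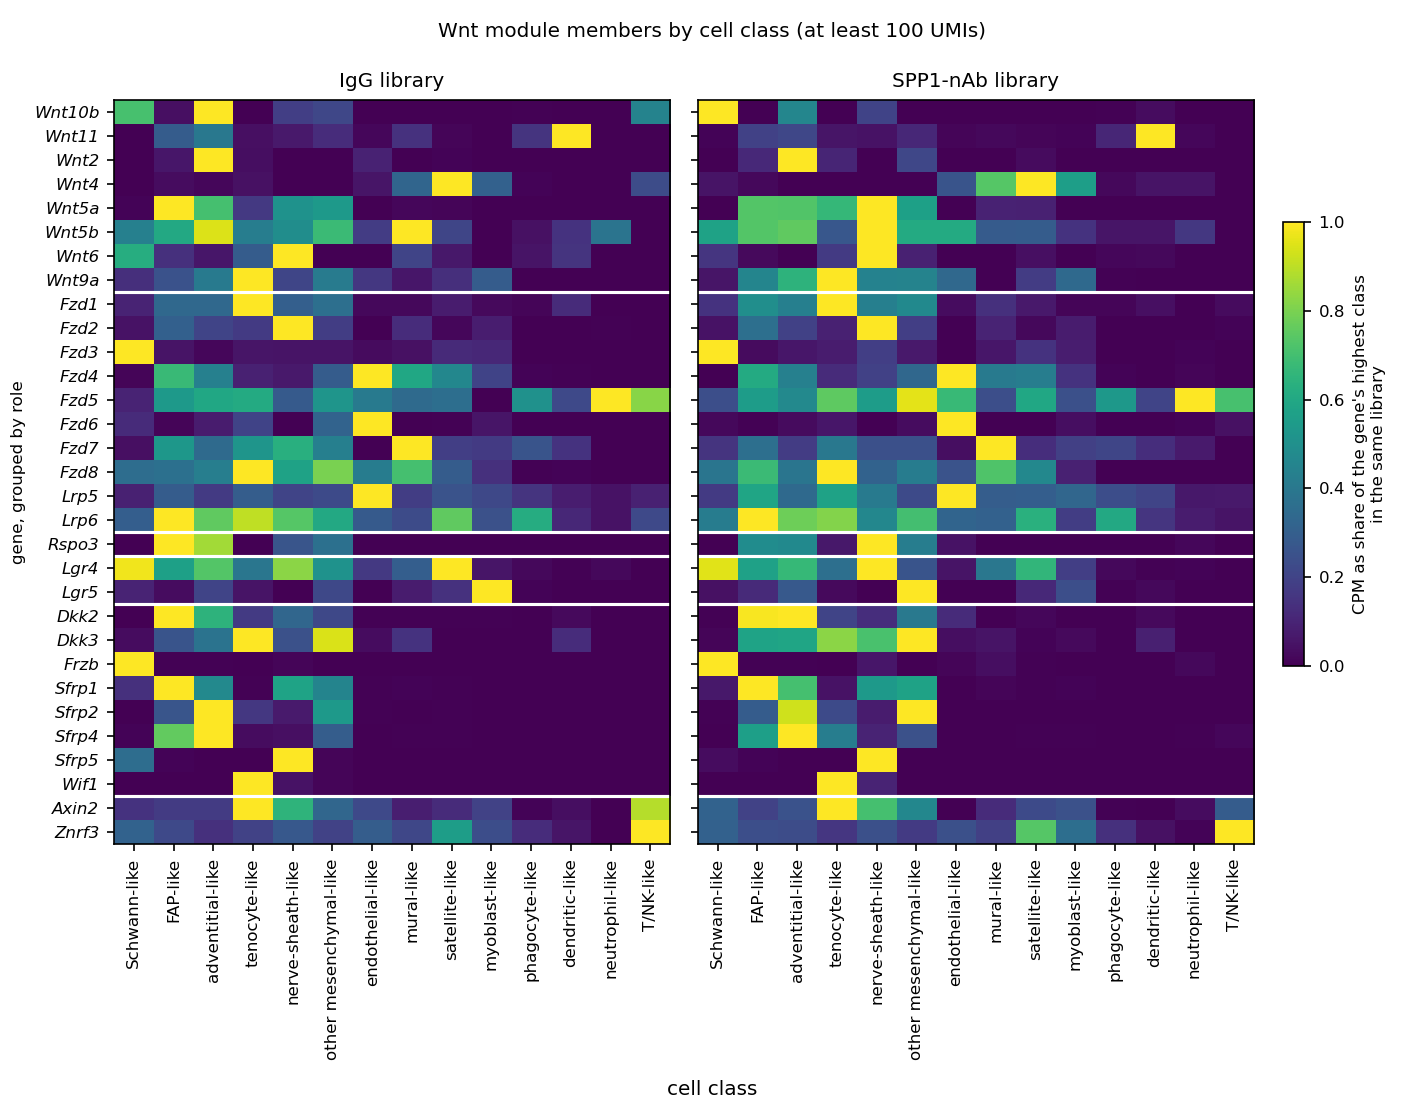
Level of the 31 members with at least 100 UMIs in each of the 14 cell classes, for the IgG library (left) and the SPP1-nAb library (right). Colour gives CPM as a share of the gene's highest class in the same library, and white lines separate ligands, receptors, the R-spondin, LGR receptors, secreted inhibitors and feedback genes. Frzb and Fzd3 peaked in Schwann-like cells, Wif1 in tenocyte-like cells and Wnt11 in dendritic-like cells in both libraries, and the 42 and 75 T/NK-like cells give that column wide counting error.

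Among the ligands, Wnt5a, which acts largely without β-catenin, was a fibroblast transcript. Under IgG it stood at 94.99 CPM [87.9 to 102.5] in FAP-like cells and 67.1 [59.2 to 75.6] in adventitial-like cells, and under SPP1-nAb at 33.5 [28.0 to 39.7] and 33.3 [26.5 to 41.4]. The 56 nerve-sheath-like cells of the SPP1-nAb library stood higher, at 45.7 CPM on 18 UMIs. In phagocyte-like cells it stood at 0.137 and 0.075 CPM. The 5 fibroblast classes held 98.2% of its UMIs under IgG and 88.3% under SPP1-nAb. At an equal depth of 2000 UMIs per cell, a Wnt5a UMI was found in 16.5% [14.5 to 18.6] of FAP-like cells under IgG and 7.28% [5.18 to 9.90] under SPP1-nAb, against 0.0267% and 0.0138% of phagocyte-like cells. Free RNA was estimated at 1.10% and 1.81% of UMIs in phagocyte-like cells and at 2.52% and 2.85% in FAP-like cells. The phagocyte-like shares therefore do not give the background of free RNA in FAP-like cells. That depth left out 98 and 27 shallower FAP-like cells.

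Wnt11, a ligand linked to planar polarity, was highest in dendritic-like cells in both libraries. It stood at 84.7 CPM [75.8 to 94.2] under IgG and 107.3 [98.2 to 117.0] under SPP1-nAb there. In phagocyte-like cells the same gene stood at 12.9 [11.9 to 13.9] and 11.7 [10.97 to 12.5]. The dendritic level was above the phagocyte level by 2.72 on the log2 scale under IgG and by 3.196 under SPP1-nAb. Adventitial-like cells held 33.9 and 23.0 CPM of it.

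Within the dendritic-like class, the level of Wnt11 differed between subsets. Subsets were set by 2 or more detected genes of a short list chosen after these values had been seen. Cells with Cd209a and Klrd1, genes of conventional type 2 dendritic cells, stood at 146.4 CPM [127.3 to 167.6] under IgG and 191.8 [171.2 to 214.2] under SPP1-nAb. Cells with at least 2 of Xcr1, Clec9a and Itgae, genes of the cross-presenting type, stood at 19.1 [12.3 to 28.2] and 18.2 [12.1 to 26.4]. The intervals of these subsets did not overlap in either library. Among all genes it was not counted how often that was so, and it does not set Wnt11 apart. Cells with at least 2 of Ccr7, Ccl22 and Il12b, genes of the migrating mature state, stood at 123.0 and 155.2 CPM. The Xcr1 subset instead held the Fzd1 UMIs, 27 and 15, of which the Cd209a subset held 0 and 1, and Dkk3 UMIs, 22 and 16 against 0 and 1. Dkk2, at 0 UMIs in both of those subsets, gave 22 and 12 UMIs in the Ccr7 subset.

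In phagocyte-like cells Wnt11 was as uneven. Cells with Tnip3 and Clec4b1 stood at 54.8 CPM [49.1 to 61.1] under IgG and 46.2 [41.9 to 50.7] under SPP1-nAb, and cells with at least 2 of Dcstamp, Ear2 and Retnla at 76.7 [60.3 to 96.1] and 40.5 [33.4 to 48.8]. Cells outside all 7 subsets stood at 8.40 and 9.99 CPM. Cells with at least 2 of Gpnmb, Atp6v0d2 and Syngr1 stood at 0.463 and 1.54, and those with 2 of Lyve1, Cd209f and Timd4 gave 0 and 1 UMIs.

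**Figure D2:**
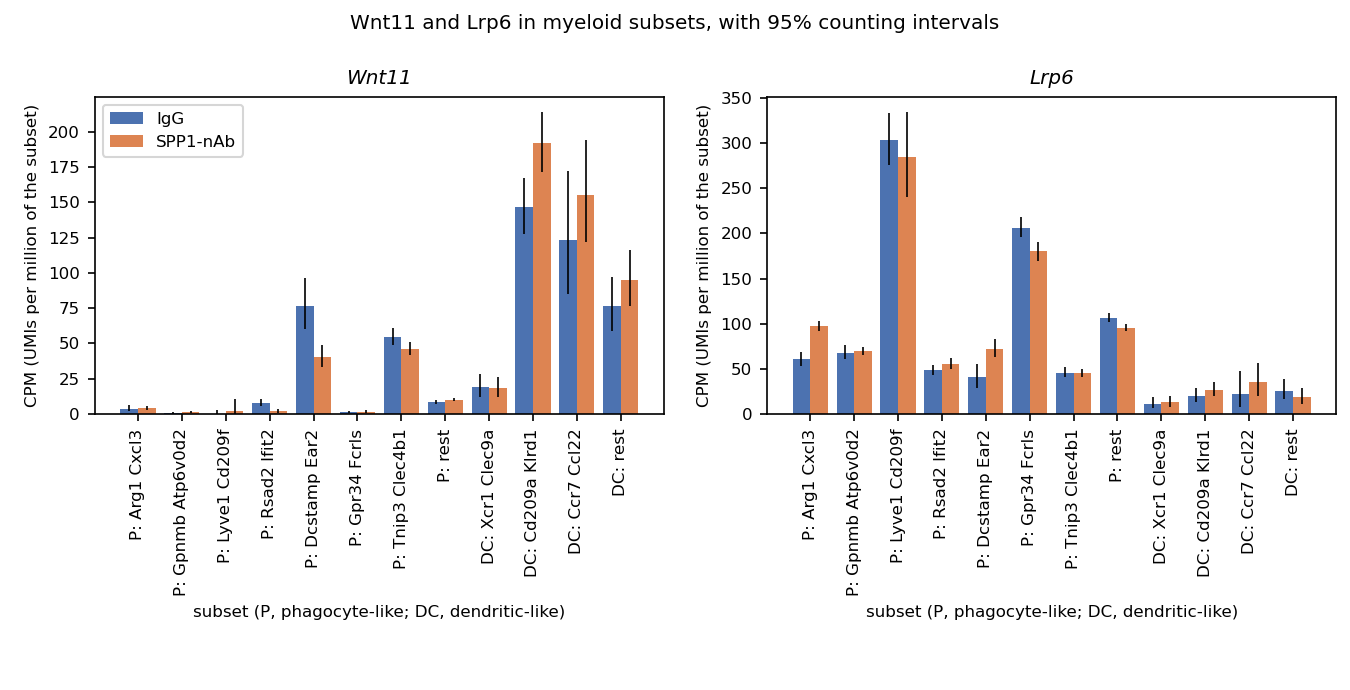
CPM of Wnt11 (left) and Lrp6 (right) in 8 groups of phagocyte-like cells (P) and 4 groups of dendritic-like cells (DC), each named by its leading genes. Bars are the IgG (blue) and SPP1-nAb (orange) libraries and lines are 95% counting intervals. Wnt11 was highest in Cd209a dendritic-like cells, at 146.4 and 191.8 CPM, while Lrp6 was highest in Lyve1 phagocyte-like cells, at 303.5 and 284.7 CPM.

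The other ligands with at least 100 UMIs each gave fewer UMIs in all than Wnt5a or Wnt11. Wnt4, which satellite cells are known to express, stood at 26.2 CPM [22.1 to 30.8] under IgG and 11.9 [9.09 to 15.4] under SPP1-nAb in satellite-like cells, and at 0.293 and 0.237 in phagocyte-like cells. Wnt2 stood at 16.2 and 13.2 CPM in adventitial-like cells and at 1.00 and 1.52 in FAP-like cells. Wnt10b had 54 and 14 UMIs in adventitial-like cells, 13 and 20 in Schwann-like cells, and 4 and 0 in FAP-like cells. On GRCm39 the Wnt10b gene (chromosome 15, 98668593 to 98690045, minus strand) overlaps Wnt1 (98687738 to 98691718, plus strand), which itself had 11 UMIs. Wnt9a was highest in tenocyte-like cells at 27.9 and 22.9 CPM. Wnt6 reached 8.38 and 20.3 CPM in nerve-sheath-like cells, on 10 and 8 UMIs. Wnt5b was low throughout, at most 8.56 CPM under IgG and 7.61 under SPP1-nAb in any class of at least 50 cells.

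Frizzled receptors were spread over more classes, but several had a clear peak. Fzd2 stood at 258.1 CPM [230.1 to 288.6] under IgG and 281.5 [231.6 to 339.0] under SPP1-nAb in nerve-sheath-like cells, above FAP-like cells (79.5 and 102.3) by 1.70 and 1.46 on the log2 scale. Fzd1 was highest in tenocyte-like cells, at 74.6 and 94.2 CPM, above FAP-like cells by 1.57 and 1.02. Fzd4, the receptor of norrin and of several Wnts in vessels, stood at 100.3 and 91.3 CPM in endothelial-like cells and 67.9 and 55.8 in FAP-like cells. Fzd6 peaked in endothelial-like cells at 36.5 and 58.8 CPM, on 24 and 38 UMIs. Fzd7 peaked in mural-like cells at 36.0 and 41.7 CPM, on 21 and 19 UMIs, although phagocyte-like cells, at 9.39 and 8.80 CPM, held 56.5% and 75.5% of all its UMIs by their number.

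Fzd3, a receptor of the planar polarity pathway, marked Schwann-like cells. It stood there at 109.6 CPM [92.6 to 128.8] under IgG and 110.2 [94.5 to 127.8] under SPP1-nAb. The next class was far lower in each library, satellite-like cells at 12.9 CPM under IgG and nerve-sheath-like cells at 20.3 under SPP1-nAb. Schwann-like cells, 470 and 477 in number, thus held 45.0% and 46.4% of the Fzd3 UMIs. At 2000 UMIs per cell a Fzd3 UMI was found in 21.7% [17.4 to 26.4] and 19.3% [15.6 to 23.5] of them, against 0.0178% and 0.0207% of phagocyte-like cells.

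Schwann-like cells with a UMI of Reln differed from the rest of the class in these genes. The study lists Reln for an early state of its terminal Schwann cells, those at the neuromuscular junction, and gives that name to other states too. Having a Reln UMI or not therefore does not separate terminal from other Schwann cells. This split was also chosen with the values known, and a cell without a Reln UMI may still express it. Fzd3 stood at 153.2 CPM [124.5 to 186.6] and 157.3 [131.2 to 187.1] in the 208 and 237 cells with Reln, against 69.0 [50.9 to 91.5] and 61.3 [45.2 to 81.3] without. Frzb stood at 140.9 [113.4 to 172.9] and 170.8 [143.6 to 201.7] against 100.7 [78.5 to 127.2] and 76.6 [58.5 to 98.6]. Sfrp1 went the other way, at 13.9 and 6.15 CPM with Reln against 80.5 and 35.8 without. Wnt10b had 9 and 17 UMIs in Reln cells and 4 and 3 in the rest.

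**Figure D3:**
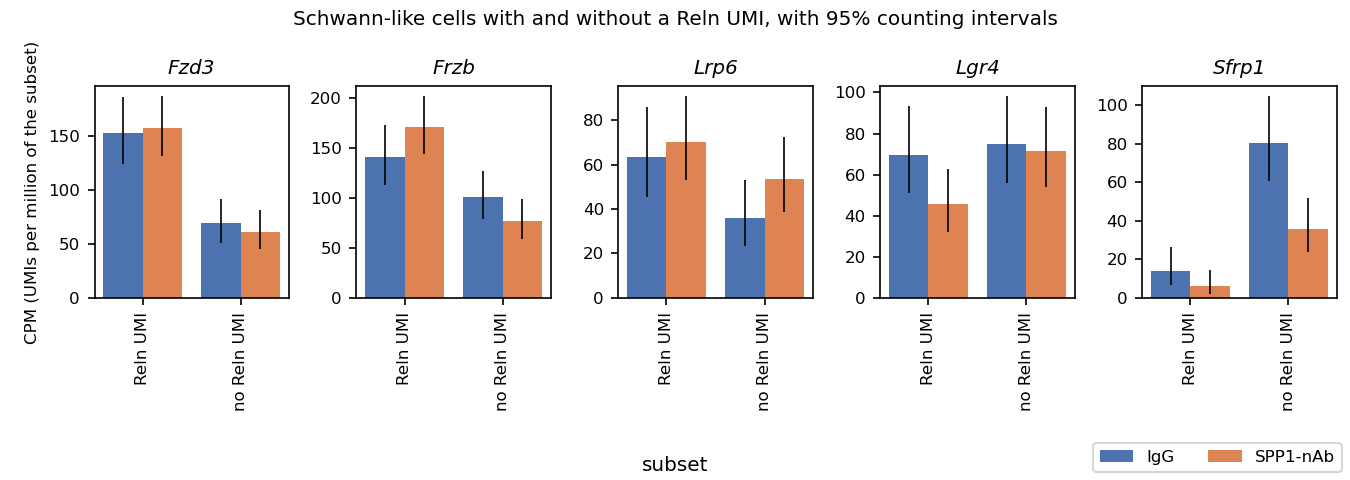
CPM of 5 members in Schwann-like cells with and without a Reln UMI, in the IgG (blue) and SPP1-nAb (orange) libraries, with 95% counting intervals as lines. Fzd3 stood at 153.2 and 157.3 CPM with Reln and at 69.0 and 61.3 without, while Sfrp1 stood at 13.9 and 6.15 with Reln and at 80.5 and 35.8 without.

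The co-receptor Lrp6 gave the most UMIs of the module, 17776, of which phagocyte-like cells held 61.8% under IgG and 77.1% under SPP1-nAb. Its level was highest in FAP-like cells, at 165.3 CPM [155.9 to 175.2] and 148.2 [136.5 to 160.8]. Phagocyte-like cells stood at 102.3 [99.5 to 105.1] and 89.6 [87.5 to 91.7] as a whole, but those with at least 2 of Lyve1, Cd209f and Timd4, genes of resident macrophages, stood at 303.5 [275.6 to 333.4] and 284.7 [240.4 to 334.8]. Those with at least 2 of Gpr34, Fcrls and Bank1 stood at 206.5 [195.8 to 217.7] and 180.0 [169.6 to 190.9]. Those with Tnip3 and Clec4b1, where Wnt11 was high, stood at 45.8 and 45.0 CPM of Lrp6. The Lyve1 subset had 374 cells under IgG and 114 under SPP1-nAb. Lrp5 peaked in endothelial-like cells at 65.4 and 37.2 CPM, on 43 and 24 UMIs.

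Among the R-spondins Rspo3 gave the most UMIs, 463. It stood at 28.8 CPM [25.0 to 33.1] under IgG and 16.0 [12.3 to 20.5] under SPP1-nAb in FAP-like cells and at 24.8 and 15.6 in adventitial-like cells. In nerve-sheath-like cells of the SPP1-nAb library it reached 33.0 CPM, but on 13 UMIs from 2 cells. The fibroblast classes held 97.6% and 97.1% of its UMIs. Rspo1, Rspo2 and Rspo4 had 62, 52 and 7 UMIs in all, and Rspo2 gave 43 UMIs under IgG and 9 under SPP1-nAb.

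The R-spondin receptor Lgr4 lay outside that source as well as in it. Its level was 74.0 CPM [67.1 to 81.5] under IgG and 40.1 [34.7 to 46.1] under SPP1-nAb in satellite-like cells. It was 72.3 [58.6 to 88.2] and 58.2 [47.0 to 71.4] in Schwann-like cells, and 42.0 and 34.8 in FAP-like cells. Nerve-sheath-like cells, the highest class under SPP1-nAb, stood at 61.2 and 60.9 CPM of Lgr4, on 73 and 24 UMIs. Adventitial-like cells stood at 54.2 and 40.7 CPM. Phagocyte-like cells stood at 1.60 and 1.35. Lgr6 gave 65 UMIs in all, of which Schwann-like cells held 21 of 28 under IgG and 23 of 37 under SPP1-nAb. Lgr5 gave 11 and 6 UMIs in myoblast-like cells, and 5 and 30 in the other mesenchymal-like class, where 9 cells held the 30.

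Several secreted inhibitors lay largely in 1 class. Wif1 stood at 580.8 CPM [544.6 to 618.7] under IgG and 414.9 [382.3 to 449.4] under SPP1-nAb in tenocyte-like cells, which held 92.9% and 93.3% of its UMIs. The next class, nerve-sheath-like cells, stood at 29.3 and 40.6 CPM. Frzb stood at 120.0 CPM [102.2 to 140.1] and 124.6 [107.9 to 143.2] in Schwann-like cells, which held 86.1% and 81.9% of its UMIs. Sfrp5 was highest in nerve-sheath-like cells, at 125.7 [106.4 to 147.5] and 159.8 [122.8 to 204.4].

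Sfrp1, Sfrp2 and Sfrp4 divided the fibroblast classes. Sfrp1 was higher in FAP-like than in adventitial-like cells, at 352.0 against 166.0 CPM under IgG and 321.6 against 226.3 under SPP1-nAb. Sfrp2 was the reverse, at 79.4 and 124.6 CPM in FAP-like cells against 302.7 and 395.5 in adventitial-like cells, a log2 difference of 1.93 [1.78 to 2.08] and 1.67 [1.51 to 1.83]. Sfrp4 was also higher in adventitial-like cells, at 250.04 and 154.7 CPM against 190.0 and 87.3. In the other mesenchymal-like cells, where Postn stood at 4882 and 4885 CPM, Sfrp2 stood at 164.0 CPM under IgG and 426.7 under SPP1-nAb. In phagocyte-like cells all 10 inhibitors together stood at 2.50 and 1.64 CPM.

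Of the feedback genes, Axin2 was highest in tenocyte-like cells, at 20.6 CPM [14.3 to 28.8] under IgG and 18.01 [11.8 to 26.4] under SPP1-nAb, the class that also held most Wif1, and Axin2 stood at 3.58 and 3.55 CPM in FAP-like cells. Znrf3 stood at 71.3 [64.5 to 78.7] and 84.8 [76.9 to 93.3] in satellite-like cells and at 16.5 and 16.0 in phagocyte-like cells. The few T/NK-like cells stood at 128.4 and 114.9 CPM of Znrf3, on 21 and 44 UMIs. Notum had 9 UMIs in all.

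The comparison the design makes is SPP1-nAb against IgG, which asks how blocking SPP1 relates to the denervated muscle's cells. In FAP-like cells 17 members had at least 100 UMIs, and 4 of them were lower and 4 higher past the fold, that is 23.5% in each direction, where 6.3% of 8602 genes were lower and 5.53% higher. The median log2 ratio was -0.16 over those members and -0.01 over those genes. The 4 lower members were a ligand, an R-spondin and 2 inhibitors, and the 4 higher members were 2 receptors and 2 inhibitors.

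Wnt5a had the lowest ratio. It gave 663 UMIs (94.99 CPM) under IgG and 132 UMIs (33.5 CPM) under SPP1-nAb in FAP-like cells, a log2 ratio of -1.50 [-1.78 to -1.23]. Dkk2 stood at 285.1 and 136.1 CPM, a ratio of -1.07 [-1.21 to -0.93]. Sfrp4 stood at 190.0 and 87.3 CPM, a ratio of -1.12 [-1.30 to -0.95]. The counting intervals of Wnt5a, Dkk2, Sfrp4 and Rspo3 did not overlap between the libraries. How often this held among all genes of the FAP-like cells was not counted, so it does not set these members apart. Those intervals leave out the spread between mice. Rspo3 gave 201 and 63 UMIs, a ratio of -0.85 [-1.28 to -0.43]. The transcripts were shared unevenly between cells: the 10 highest of the FAP-like cells held 55.5% of the Sfrp4 UMIs and 57.1% of the Rspo3 UMIs under SPP1-nAb, against 19.7% for Wnt5a.

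The members that were higher in FAP-like cells were Fzd1, at 25.1 and 46.4 CPM with a log2 ratio of 0.89 [0.58 to 1.20], Dkk3, at 12.3 and 24.9 CPM with 1.01 [0.58 to 1.45], Sfrp2, at 79.4 and 124.6 CPM with 0.65 [0.47 to 0.83], and Fzd8, at 10.7 and 16.5 CPM with 0.62 [0.12 to 1.12]. Thinned to 2000 UMIs per cell, the Fzd1 ratio was 0.37, inside the fold. That of Fzd8 was 0.55 with 1 more marker in each gate and 0.57 with no doublets removed or over 500 genes per barcode, and that of Sfrp2 was 0.53 as a mean over cells. Of the Sfrp2 UMIs under SPP1-nAb, 10 cells held 49.7%. Sfrp1, the inhibitor highest in these cells, differed little, at 352.0 and 321.6 CPM, a ratio of -0.13 [-0.23 to -0.03], and Lrp6 had a ratio of -0.16 [-0.30 to -0.01]. By role, the summed ligands stood at 136.0 CPM [127.5 to 144.9] under IgG and 74.1 [65.9 to 83.1] under SPP1-nAb, and the summed inhibitors at 921.2 [898.9 to 944.0] and 697.0 [671.2 to 723.5]. Single members carried these sums: without Wnt5a the ligands stood at 41.0 CPM [36.4 to 46.0] and 40.6 [34.6 to 47.4], and without Dkk2 and Sfrp4 the inhibitors stood at 446.2 [430.6 to 462.1] and 473.6 [452.4 to 495.6]. The summed receptors, at 401.5 [386.7 to 416.6] and 420.3 [400.3 to 441.1], differed within their counting error.

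Other features of the FAP-like cells moved with the library. Their median depth was 4581 UMIs under IgG and 7326 under SPP1-nAb. Postn, a matrix gene of activated fibroblasts, stood at 507.5 and 1361 CPM, and cells with UMIs of both Postn and Cthrc1 were 6.75% and 26.4% of the class. Those shares were counted at full depth, where a deeper cell more readily shows both genes. The part of depth in them was not tested. Among the cells without both, Wnt5a stood at 101.1 and 40.5 CPM (ratio -1.32 [-1.63 to -1.02]), Dkk2 at 304.6 and 159.7 (-0.93 [-1.09 to -0.78]), Sfrp4 at 201.8 and 100.8 (-1.001 [-1.20 to -0.81]) and Fzd1 at 24.4 and 46.1 (0.92 [0.57 to 1.27]). In the cells with both, Wnt5a stood at 43.3 and 18.9 CPM and Dkk2 at 120.4 and 86.5. Sfrp2 was nearer between the libraries without those cells, at 71.0 and 85.5 CPM, a ratio of 0.27 [0.03 to 0.50]. The summed markers of mononuclear phagocytes in FAP-like cells, all 15 genes together, stood at 389.0 and 521.1 CPM. The part of these features in the ratios was not tested, and in pooled counts fewer expressing cells and less RNA per cell cannot be told apart.

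**Figure D4:**
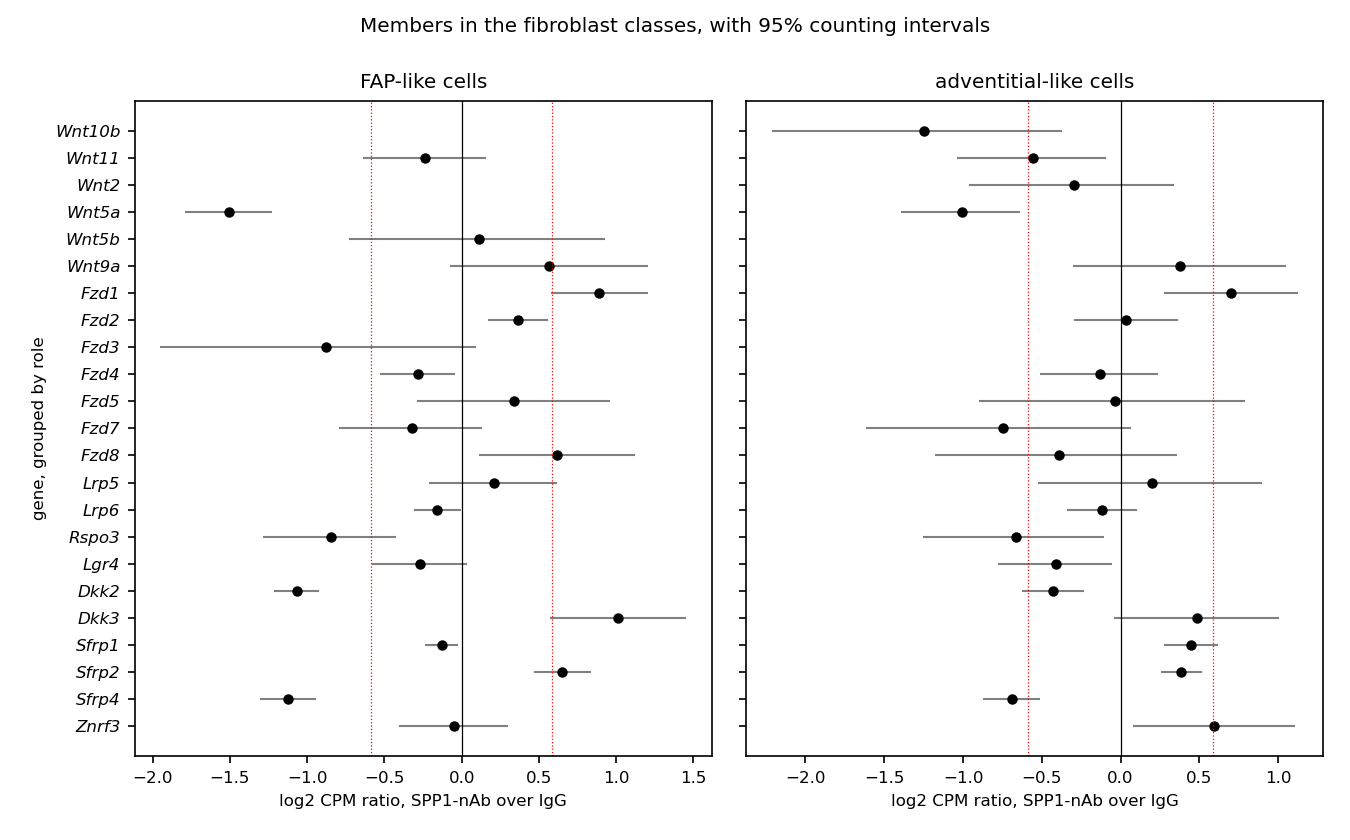
Log2 ratio of CPM, SPP1-nAb over IgG, for members with at least 50 UMIs and 20 cells with a UMI, in FAP-like (left) and adventitial-like cells (right). Points are ratios, grey lines their 95% counting intervals, the solid line equality and the dotted lines a 1.5-fold difference. Wnt5a, Sfrp4 and Rspo3 lie to the left and Fzd1 to the right in both classes.

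Adventitial-like cells, 630 and 280 in number, had 14 members with at least 100 UMIs, of which 3 were lower (21.4%) and 2 higher (14.3%), against 6.53% lower and 4.54% higher of 6812 genes. Wnt5a stood at 67.1 and 33.3 CPM with a log2 ratio of -1.01 [-1.39 to -0.64], Sfrp4 at 250.04 and 154.7 with -0.69 [-0.87 to -0.52] and Rspo3 at 24.8 and 15.6 with -0.67 [-1.25 to -0.11]. Fzd1 stood at 25.1 and 40.7 CPM with a ratio of 0.70 [0.28 to 1.12], which was 0.56 with no doublets removed and 0.50 as a mean over cells. Znrf3, the other higher member, stood at 17.7 and 26.8 CPM with 0.59 [0.08 to 1.10], which was 0.57 with over 500 genes per barcode and 0.53 with the 20% highest doublet scores removed. Dkk2 differed less here than in FAP-like cells, at 184.8 and 137.4 CPM with -0.43 [-0.62 to -0.24], and Sfrp1 was higher, at 166.0 and 226.3 with 0.45 [0.28 to 0.61]. Over 10 settings the Dkk2 ratio in adventitial-like cells ran from -0.44 to -0.01. Wnt10b, on 54 and 14 UMIs, had a ratio of -1.25 [-2.21 to -0.38]. The summed inhibitors stood at 922.7 and 940.4 CPM, a difference within counting error. Median depth was 5620 and 8762 UMIs in this class, and Pi16, one of its defining genes, stood at 1379 and 748.6 CPM. Cxcl14 and Smoc2, genes of FAPs, stood at 397.6 and 826.0 CPM and at 297.4 and 434.2 in the same cells, and Postn at 2057 and 2596. Whether these have a part in the ratios was not tested. In the 227 and 56 nerve-sheath-like cells Dkk2 gave 112 and 7 UMIs, a ratio of -2.40 [-3.75 to -1.31]. In other mesenchymal-like cells its ratio was -0.16 [-0.69 to 0.38].

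In tenocyte-like cells 8 members had at least 100 UMIs, of which 2 were higher and 2 lower (25% each), against 6% higher and 3.71% lower of 4419 genes. Sfrp2 stood at 48.5 and 95.6 CPM with a log2 ratio of 0.98 [0.57 to 1.39]. As a mean over cells its ratio was 0.19, inside the fold, and at 2000 UMIs per cell 3.68% [2.07 to 5.99] of 408 cells and 4.44% [2.38 to 7.47] of 293 cells held an Sfrp2 UMI. Sfrp4 gave 14 and 95 UMIs, but 10 cells held 91 of the 95. Dkk2 stood at 48.5 and 28.4 CPM with -0.77 [-1.35 to -0.21] and Fzd2 at 44.3 and 26.3 with -0.75 [-1.36 to -0.17]. Wif1 stood at 580.8 and 414.9 CPM with -0.49 [-0.64 to -0.34], inside the fold. Wnt5a, on 26 and 44 UMIs, had a ratio of 0.95 [0.22 to 1.71] here, opposite in sign to the FAP-like cells. Some genes high in other classes were also higher in the tenocyte-like cells of the SPP1-nAb library. Cxcl14 stood at 194.0 and 494.5 CPM, Postn at 426.8 and 806.2, Cthrc1 at 103.7 and 199.5 and Pdgfra at 20.6 and 27.0. The summed phagocyte markers stood at 594.1 and 1116 CPM. Smoc2 and Pi16 went the other way, at 38.2 and 33.9 CPM and at 9.09 and 6.23 CPM. The free RNA estimate was 3.84% and 6.10%. The part of these in the ratios was not tested.

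In satellite-like cells 8 members had at least 100 UMIs, of which 2 were lower (25%) and 0 higher, against 3.63% lower and 4.7% higher of 8082 genes. Wnt4 gave 146 UMIs under IgG and 59 under SPP1-nAb, a log2 ratio of -1.13 [-1.59 to -0.69]. Lgr4 gave 413 and 198, a ratio of -0.89 [-1.14 to -0.64]. At 2000 UMIs per cell an Lgr4 UMI was found in 12.0% [10.2 to 13.9] and 7.01% [5.50 to 8.79] of the cells, and a Wnt4 UMI in 4.99% [3.85 to 6.35] and 2.95% [1.98 to 4.21], with 849 and 384 shallower cells left out. Without thinning, 120 of 2092 and 49 of 1368 cells held a Wnt4 UMI. Lrp6 stood at 124.8 and 93.9 CPM with -0.41 [-0.58 to -0.24], inside the fold, and Znrf3 at 71.3 and 84.8 with 0.25 [0.05 to 0.45]. Lrp5, at 16.7 and 11.1 CPM on 93 and 55 UMIs, lay just inside the fold with -0.58 [-1.09 to -0.09]. Fzd5 was on 30 and 54 UMIs, a ratio of 1.02 [0.35 to 1.72].

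Phagocyte-like cells had 9 members with at least 100 UMIs and none past the fold, where 8.17% of 12372 genes were lower and 2.56% higher. Their ratios ran from -0.30 for Fzd4 to 0.38 for Fzd5, which stood at 7.53 and 9.77 CPM with an interval of 0.20 to 0.56. With no doublets removed, the count of members past the fold changed here, as it did in Schwann-like cells. The class was made up differently in the libraries: Gpnmb cells were 6.06% and 13.6% of it, Arg1 cells 6.10% and 12.4%, and Lyve1 cells 3.05% and 0.741%. Within subsets some ratios were larger, with Lrp6 at 0.68 [0.48 to 0.88] in Arg1 cells and 0.82 [0.33 to 1.35] in Dcstamp cells, and Wnt11 at -0.92 [-1.35 to -0.48] in Dcstamp cells and -1.93 [-3.01 to -0.97], on 53 and 11 UMIs, in Rsad2 cells. Schwann-like cells had 5 such members and none past the fold, where 2.18% of 4912 genes were lower and 1.3% higher. Fzd3 had a ratio of 0.01 [-0.32 to 0.33] and Frzb of 0.05 [-0.25 to 0.36]. Below 100 UMIs, Sfrp5 gave 60 and 8 UMIs in Schwann-like cells, in 30 and 5 cells, a ratio of -3.16 [-4.43 to -2.09], and Sfrp1 gave 65 and 33, a ratio of -1.23 [-1.88 to -0.60]. Sfrp5 is a nerve-sheath transcript in these data, and nerve-sheath-like cells numbered 227 and 56, a shift whose part in this ratio was not tested. In dendritic-like cells Wnt11 had a ratio of 0.34 [0.14 to 0.54].

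Outside the members, 71 genes of the pathway were followed from a list written by hand with earlier results of these data known. Of these, 60 had at least 100 UMIs. In FAP-like cells 49 reached 100 UMIs, and 4 were higher (8.16%, against 5.53% of all genes) and 5 lower (10.2%, against 6.3%) past the fold. In adventitial-like cells 2 of 41 were higher (4.88%, against 4.54%) and 3 lower (7.32%, against 6.53%). In tenocyte-like cells 4 of 28 were higher (14.3%, against 6%) and 3 lower (10.7%, against 3.71%), and in satellite-like cells 4 of 43 were higher (9.30%, against 4.7%) and 0 lower (against 3.63%). In phagocyte-like cells 1 of 37 was higher (2.70%, against 2.56%) and 2 lower (5.41%, against 8.17%), and in Schwann-like cells 1 of 23 was higher and 1 lower (4.35% each, against 1.3% and 2.18%). With 1 to 5 genes in each count, a single gene moves these shares. The median log2 ratio of the list was 0.13 in FAP-like, 0.07 in adventitial-like and 0.12 in satellite-like cells, where all genes had -0.01, -0.05 and 0.06.

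In FAP-like cells, of the genes of that list with the largest ratios, Gpc3, a glypican, stood at 431.1 and 171.6 CPM with a log2 ratio of -1.33 [-1.45 to -1.21], and Reck, part of the Wnt7 receptor complex in vessels, at 54.0 and 29.2 with -0.89 [-1.20 to -0.58]. Daam2, a formin inside the cell, followed with -0.65. Ccn4, a secreted matricellular protein, stood at 7.88 and 33.8 CPM with 2.10 [1.64 to 2.58], Cthrc1 at 43.7 and 122.3 with 1.49 [1.28 to 1.70] and Lgals3bp at 58.7 and 107.6 with 0.87 [0.67 to 1.07]. Gpc3 was also the lowest of the list in adventitial-like cells, at 152.1 and 63.4 CPM with -1.26 [-1.53 to -1.01], but was higher in satellite-like cells, at 48.4 and 79.9 CPM with 0.72 [0.50 to 0.95]. In adventitial-like cells Reck (-0.74) and Tle4 (-0.64) followed Gpc3 downwards, and Ccn4 (0.68), Cthrc1 (0.61) and Prickle1 (0.58) had the highest ratios. In tenocyte-like cells Myc (1.13), Cthrc1 (0.94) and Trabd2b (0.71) had the highest ratios and Reck (-0.83), Daam1 (-0.73) and Prickle1 (-0.72) the lowest. In satellite-like cells Tcf7 (0.77) and Ptk7 (0.73) stood beside Gpc3. In Schwann-like cells Sostdc1, a secreted BMP and Wnt modulator, gave 86 and 22 UMIs with -2.22 [-2.96 to -1.53], and Gpc6 gave 36 and 81 with 0.92 [0.34 to 1.53]. In phagocyte-like cells the co-receptor Ryk (-1.19) and the cell cycle gene Ccnd1 (-0.73) were lower and Adgra2 (0.69) higher.

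The ratios given here for the shared machinery all lay inside the fold. Wls, which carries Wnts to the surface, stood at 159.0 and 197.0 CPM in FAP-like cells with a log2 ratio of 0.31 [0.17 to 0.44] and at 113.3 and 113.8 in phagocyte-like cells with 0.01 [-0.04 to 0.05]. Porcn, which attaches the lipid, stayed under 10 CPM in each of the 8 classes examined. Ctnnb1, which encodes β-catenin, had a ratio of 0.34 [0.18 to 0.50] in FAP-like, 0.52 [0.33 to 0.71] in satellite-like and 0.44 [0.39 to 0.50] in phagocyte-like cells. The Ctnnb1 ratio was 0.45 [0.15 to 0.76] in tenocyte-like and 0.36 [0.07 to 0.66] in dendritic-like cells. It was near equality in adventitial-like cells, at 0.02 [-0.20 to 0.24], and in Schwann-like cells, at 0.01 [-0.35 to 0.37]. Ror1 stood at 174.8 and 227.9 CPM in FAP-like cells with 0.38 [0.26 to 0.51] and at 555.9 and 521.4 in satellite-like cells, and Ror2 in FAP-like cells had 0.51 [0.19 to 0.82]. Of the nuclear factors, Tcf7l2 stood at 475.1 and 483.0 CPM in FAP-like cells, while Lef1 had no UMI there and Tcf7 had 3 and 1.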

How the data were processed

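Sorted muscle cells were profiled by droplet-based single-cell RNA sequencing in 2 libraries, 1 per condition. The authors deposited raw UMI counts per gene and barcode for each library. The submitters' processing notes name Cell Ranger 8.0.0 and GRCm39, the file headers name Cell Ranger 9.0.1, and the study's methods describe filters, removal of ambient RNA and of doublets, and integration that came after these counts. Barcodes with over 200 genes and under 10% mitochondrial UMIs were kept, and the 10% with the highest doublet scores (share of simulated doublets, 2 per barcode, among 50 neighbours on 30 principal components of 2000 variable genes) were removed per library as a set share, not a call.

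Cells were gated by distinct markers (3, or 5 for mesenchymal cells and phagocytes) and by the summed marker level. A cell was left ambiguous where another lineage scored at least 0.5 of its best gate. UMIs were summed per class and library, with exact 95% Poisson or binomial intervals. These cover counting error only, and 1 library per condition allows no test. Free RNA was estimated from other lineages' markers at 0 to 6.1% of a class's UMIs. Members with at least 100 UMIs are described, ratios are given from 50 UMIs and 20 positive cells or as raw UMIs below that, and from the pathway list 8 genes plus the 3 extremes per direction are named. Further genes were named after their values were seen. The members, markers, lists and subsets were chosen with earlier results of these data known. Intervals were tried on simulated Poisson counts, gates on cells drawn from each class's own profile and doublet scores on summed pairs of cells. Poisson counts hold no clumping of UMIs in few cells, so the trial of the intervals was largely fixed in advance. Coordinates are from GENCODE release 39 for mouse (31674 of 32287 identifiers matched) and upstream sequences from RefSeq (32 of 51 members matched). Alternatives varied the filters, doublets, gates, free RNA, depth and scaling. Python 3.11.15, numpy 2.4.6, scipy 1.17.1, pandas 2.3.3 and scikit-learn 1.9.0 were used.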

Additional observations from a re-analysis of the deposited data

Results flagged for a closer look

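Fzd1 and Wnt5a had ratios of at least 1.5-fold in opposite directions in different cell classes, and these differences between classes were not tested. Those in dendritic-like, tenocyte-like and other mesenchymal-like cells rest on fewer than 100 UMIs. The log2 ratio of Fzd1, SPP1-nAb over IgG, was 0.89 in FAP-like, 0.70 in adventitial-like and 0.72 in other mesenchymal-like cells and -1.27 in dendritic-like cells, where it rested on 36 and 18 UMIs. That of Wnt5a was -1.50 in FAP-like, -1.01 in adventitial-like and -0.98 in other mesenchymal-like cells and 0.95 in tenocyte-like cells, where it rested on 26 and 44 UMIs.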

How the results depend on the processing

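No paired analysis was possible because each condition has 1 library. No replicate could be left out for the same reason. Under alternatives 32 values of the summed log2 ratios stayed within the counting interval and 3 did not. In FAP-like cells the summed inhibitors were at -0.33 with 1 more marker in each gate and at 0.086 without Dkk2 and Sfrp4, and the summed ligands were at -0.013 without Wnt5a. In FAP-like cells, Wnt5a ran from -1.51 to -1.26, Dkk2 from -1.17 to -0.93, Sfrp4 from -1.12 to -0.86, Rspo3 from -1.20 to -0.84 and Dkk3 from 0.81 to 1.17 over 11 settings, while Sfrp2 ran from 0.27 (without cells holding both Postn and Cthrc1) to 0.84 and Fzd1 from 0.37 (thinned to 2000 UMIs per cell) to 0.93. Thinned to 2000 UMIs per cell, the ratio of Sfrp4 in other mesenchymal-like cells was 0.17 and that of Fzd3 in FAP-like cells 0.14, opposite in sign to the unthinned ratio. The cause was not tested.

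Counts of members past the fold were small and moved with the settings. With at least 20 UMIs in place of 100, which admits more members, 4 of 25 were higher in adventitial-like cells (8.78% of all genes at that minimum), 5 of 20 in tenocyte-like (11.6%), 4 of 19 in satellite-like (8.70%), 2 of 21 in phagocyte-like (5.72%) and 1 of 12 in Schwann-like cells (6.76%), and 5 of 25 were lower in adventitial-like (11.7%), 5 of 21 in phagocyte-like (12.1%) and 2 of 12 in Schwann-like cells (7.65%). At that minimum 2 of 20 were lower in tenocyte-like (8.85%) and 2 of 19 in satellite-like cells (7.07%). The lower members there were thus a smaller share than with at least 100 UMIs, nearer to that of all genes. In FAP-like cells 4 of 22 were higher (9.24%) and 5 of 22 lower (10.8%). With no doublets removed, 1 member was higher in adventitial-like cells, 4 were lower in phagocyte-like and 1 in Schwann-like cells, and of the pathway genes 1 was higher in adventitial-like cells and in phagocyte-like cells 0 were higher and 5 lower. With 1 more marker in each gate, 1 member and 6 pathway genes were higher in adventitial-like cells and 0 pathway genes were lower in Schwann-like cells. The share of all genes past the fold with no doublets removed or 1 more marker is not given. Those counts therefore do not set the members apart. Scaling by the median ratio moved the median of all genes by 0.06 or less in the 6 classes compared and changed no count beyond 1.5 times. Counts could still move within that limit. In satellite-like cells this scaling put Lrp5 at -0.64, past the fold, which adds a lower member. The alternatives that leave out cells with both Postn and Cthrc1, or Wnt5a, Dkk2 and Sfrp4 from the sums, were chosen after seeing the data. As a mean over cells, the Sfrp2 ratio in tenocyte-like cells was 0.19. With 1 library per condition, differences between pools of mice cannot be told apart from those of the antibody.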
